A study of Mus musculus with 10 samples.

Results

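The leukocyte lineage markers are 39 genes by which white blood cells, or single lineages of them, are recognised in a tissue. They were taken as a fixed list of symbols, and all 39 were found among the 23337 genes of the deposited table, 38 by their own symbol and Spi1 by its older symbol Sfpi1. By lineage they are 5 pan-leukocyte genes, 16 genes of macrophages and monocytes, 5 of resident macrophages, 2 of lipid-associated macrophages, 4 of class II antigen presentation, 3 of T and NK cells, 2 of B cells and 2 of granulocytes. RNA of the right atrium was sequenced from 4 mice labelled control and 6 mice labelled as Tbx5 knockouts, called Tbx5 mutant mice, with 1 library per mouse, to ask how atrial gene expression differs once TBX5 is removed. A Cre recombinase that tamoxifen switches on, expressed from the R26 promoter in every cell type, was used to delete exon 3 of Tbx5, so that deletion was not confined to heart muscle and leukocytes carried the same Cre. Tamoxifen was given at 0.167 mg per day on 3 days and the right atria were taken 1 week afterwards. The labels give only Control as the genotype of the control mice and do not say which Cre or floxed alleles these carried; in the study's other atrial RNA the controls were R26CreERt2 mice and the mutants Tbx5 fl/fl;R26CreERt2 mice. The strain of all 10 mice is labelled mix, and their age is given as 6 to 8 weeks in one label and 8 to 10 weeks in another.

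Leukocytes of the heart are mostly resident macrophages, which live among the muscle cells, take up debris and depend on CSF1, the growth factor bound by the receptor Csf1r. Monocytes from the blood can enter the tissue and become macrophages, while T cells, B cells and granulocytes are scarce in a healthy atrium. Macrophages sense antibodies and lipids through receptors that signal by the adaptors Tyrobp and Fcer1g, make the complement components C1qa, C1qb and C1qc, and, with dendritic cells and B cells, show peptides to T cells on class II molecules.

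Promoters of members in which the level differed or could be compared are shown first, because macrophage genes are known to be driven by PU.1, the product of Spi1, and class II genes by factors that bind a Y box. Capitals mark GAGGAA or CCAAT on either strand, GAGGAA being the core letters of PU.1 sites and CCAAT those of the Y box. Each sequence holds the 200 bases before the RefSeq start on build GRCm38.p6, read 5′ to 3′ along the gene's strand.
C1qb, chr4:136886201-136886400, reverse strand: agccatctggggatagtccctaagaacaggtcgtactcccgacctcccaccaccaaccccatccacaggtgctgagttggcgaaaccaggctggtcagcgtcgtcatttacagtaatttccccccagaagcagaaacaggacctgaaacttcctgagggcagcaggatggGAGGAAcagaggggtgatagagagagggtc
C1qc, chr4:136892915-136893114, reverse strand: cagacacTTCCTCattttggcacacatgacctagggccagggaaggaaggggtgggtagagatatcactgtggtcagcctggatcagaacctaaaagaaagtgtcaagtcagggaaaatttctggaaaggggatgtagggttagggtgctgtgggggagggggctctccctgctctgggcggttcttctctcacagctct
Ctss, chr3:95526586-95526785, forward strand: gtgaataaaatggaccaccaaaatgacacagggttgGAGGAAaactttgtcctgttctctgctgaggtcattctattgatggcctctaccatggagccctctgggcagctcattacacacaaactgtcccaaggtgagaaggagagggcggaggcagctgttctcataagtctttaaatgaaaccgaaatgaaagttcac
H2-Aa, chr17:34287824-34288023, reverse strand: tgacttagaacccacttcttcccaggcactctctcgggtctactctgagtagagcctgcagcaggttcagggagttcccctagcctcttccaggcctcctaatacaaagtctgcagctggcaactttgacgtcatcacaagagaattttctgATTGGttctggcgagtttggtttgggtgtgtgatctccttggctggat

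In the promoters shown, GAGGAA began 30 bases before the start of C1qb and 164 bases before that of Ctss, its reverse complement lay 193 bases before the start of C1qc, and the reverse complement of CCAAT lay 48 bases before the start of H2-Aa. RefSeq promoters of 300 bases, 250 before and 50 after the start, were matched for 29 of the 39 members in 33 windows. GAGGAA was present on either strand in 16 of the 33 windows, and in 28.3% of all 32851 promoters of the same length. CCAAT was present in 14 of the 33, and in 37.4% of all promoters. AGGTGT, the core letters of sites for T-box factors such as TBX5, was present in 5 of the 33, and in 13.7% of all promoters. These matches describe the letters in the windows and were not tested. The letters of the 3 motifs do not contain one another.

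The counts per library summed to between 5703775 and 7095141. A single gene, Rn45s, took 38.9% of them in mutant M3, leaving 3484550 counts on other genes, so that levels in this mouse are the least precise. Tbx5 itself, counted over the whole gene, was at 184 to 224 CPM (CPM, a library's reads of the gene as a share of its TMM-scaled total) in the control mice and at 275 to 475 CPM in the mice labelled Tbx5 mutant, higher in every mouse with the knockout label. Exons other than exon 3 remain countable after the deletion, so these counts do not by themselves check it. Control mice and mutant mice stand throughout for the mice labelled so, and every direction is relative to those labels. Reads of Xist and of Y-linked genes went against the sex labels of all 4 control mice. Cardiomyocyte genes were abundant in all 10 libraries, with 8 right atrial genes summing to between 53639 and 76893 CPM.

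Most leukocyte genes with enough reads to be tested were higher in the mutant mice, among them all 5 pan-leukocyte genes and 13 of the 16 genes of macrophages and monocytes. Of the 39 members, 32 passed edgeR's filter on low counts and 7 did not. Plac8, with 3 to 8 reads in a control library, passed it only through the mutant mice. A gene was called when its adjusted p was under 0.05 (edgeR's quasi-likelihood test, Benjamini-Hochberg over all 13084 genes tested), its fold change was over 1.5 and its mean signal in the control mice, as normalized by the authors, was over 1. Of the 32 members tested, 21 were called higher and 0 lower, beside 8.50% of all genes tested called higher and 7.16% called lower. At any fold, 24 of the 32 were higher with an adjusted p under 0.05 and 0 lower, beside 16.3% and 15.0% of all genes. Members lower at an unadjusted p under 0.05 also numbered 0, and DESeq2 and limma called 22 and 20 members higher and 0 lower. In 19 of the 32, every mutant mouse was above every control mouse, and in 0 every mutant mouse was below, beside 11.7% and 11.0% of all genes. Those 19 members each had p = 0.00952 in the two-sided exact permutation test of log2 CPM, the lowest value possible with 4 and 6 mice. Groups without overlap give this value, so that it restates the separation and adds no support. The log2 fold change was above 0 in 30 of the 32 members and in 49.4% of all genes tested, and its median was 0.79 over the members tested and −0.005 over all genes. In RNA of a whole atrium, more leukocytes and more RNA of these genes per leukocyte cannot be told apart.

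**Figure D1:**
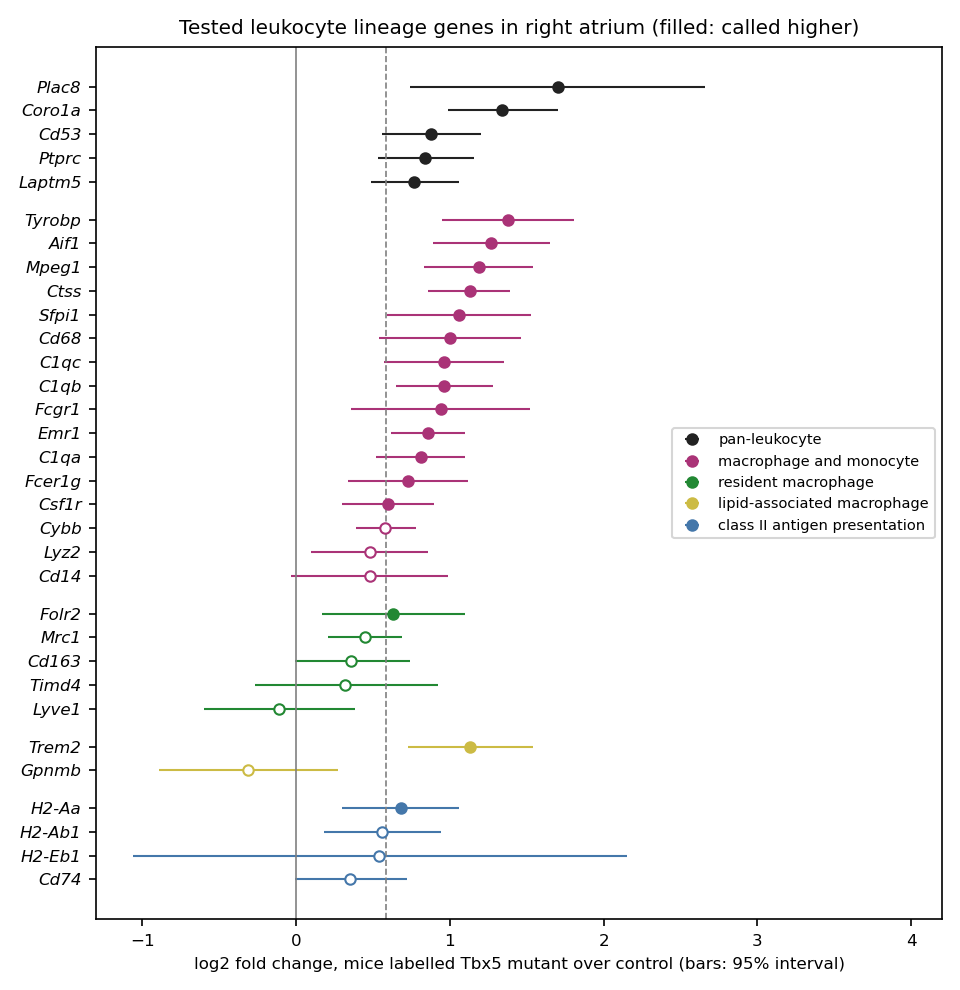
The horizontal axis gives the log2 fold change of the mice labelled Tbx5 mutant (n = 6) over the control mice (n = 4) for the 32 tested members, in blocks by lineage, with 95% intervals as bars. The grey line marks 0, the dashed line a fold of 1.5, and filled points the 21 members called higher; the points run from −0.31 for Gpnmb to 1.70 for Plac8.

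All 5 pan-leukocyte genes were called higher. Ptprc, which encodes the surface phosphatase CD45 carried by all leukocytes, was at 22.6, 22.3, 14.9 and 19.2 CPM in control M1, M2, F1 and F2 and at 45.6, 32.0, 32.8, 39.3, 32.9 and 29.7 CPM in mutant F1, F2, F3, M1, M2 and M3. The groups did not overlap, and the lowest mutant mouse, M3, lay above the highest control mouse, M1. Ptprc rose by 0.84 on the log2 scale (standard error 0.15, adjusted p = 0.000788, edgeR). Coro1a, an actin-binding protein of leukocytes, was at 6.12 to 8.29 CPM in the control mice and at 14.1 to 23.7 CPM in the mutant mice, where M2 and M3 were highest. Its log2 fold change was 1.34 (standard error 0.17, adjusted p = 6.36e-05, edgeR). Cd53, a tetraspanin of leukocyte membranes, rose by 0.88 and Laptm5, a lysosomal membrane protein of blood cells, by 0.77 on the log2 scale, and neither had overlapping groups. Plac8 had the highest log2 fold change of the 32 members, 1.70 (standard error 0.45, adjusted p = 0.0109, edgeR), but rested on 3 to 8 reads in a control library and 5 to 32 in a mutant library. Its groups overlapped, with mutant M1 at 0.857 CPM beside control M2 at 1.32 CPM. It was no longer tested once mutant F1, F2, F3 or M2 was left out, since it then fell under the filter. No control mouse reached the filter, so that Plac8 was tested only because it was high in mutant mice.

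Of the 16 macrophage and monocyte genes, 13 were called higher, Cybb was past the adjusted p with a fold just under 1.5, and Lyz2 and Cd14 were not past it. Ctss, the protease cathepsin S that acts in antigen processing, had the lowest adjusted p of all members. It was at 46.6, 50.8, 33.9 and 44.3 CPM in control M1, M2, F1 and F2 and at 85.0, 91.3, 109, 84.2, 112 and 94.8 CPM in mutant F1, F2, F3, M1, M2 and M3. Every mutant mouse thus exceeded the highest control mouse. Ctss rose by 1.13 on the log2 scale (standard error 0.12, adjusted p = 2.32e-05, edgeR). In the GENCODE M21 annotation of GRCm38, Ctss lies on chromosome 3 from 95526786 to 95556403 on the forward strand.

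The 3 chains of complement C1q, the opener of the classical complement pathway, are encoded side by side on the reverse strand of chromosome 4, from 136880129 to 136898803, and rose together. C1qb was at 61.3, 68.0, 46.9 and 58.3 CPM in control M1, M2, F1 and F2 and at 108, 110, 132, 78.3, 133 and 124 CPM in mutant F1, F2, F3, M1, M2 and M3. Mutant M1 was the lowest of its group and still above control M2, the highest control mouse. The log2 fold changes were 0.81 for C1qa, 0.96 for C1qb and 0.96 for C1qc, with standard errors of 0.14, 0.15 and 0.18 and adjusted p of 0.000606, 0.0003 and 0.0015 from edgeR. C1qa lost its call, at a fold under 1.5 and 0.57 on the log2 scale, once each library's dependence on transcript length had been removed. The reads of C1qa over those of C1qb came to between 1.10 and 1.59 in the control mice and between 1.09 and 1.41 in the mutant mice, and those of C1qc over C1qb to between 0.951 and 1.17 and between 0.873 and 1.20.

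Among receptors and adaptors, Tyrobp, the adaptor DAP12 of several myeloid receptors, had the largest log2 fold change of the 16 genes. It was at 16.3, 12.4, 11.1 and 12.7 CPM in control M1, M2, F1 and F2 and at 24.3, 30.0, 34.4, 25.5, 46.9 and 45.2 CPM in mutant F1, F2, F3, M1, M2 and M3. Its log2 fold change was 1.38 (standard error 0.20, adjusted p = 0.000224, edgeR), and mutant M2 and M3 stood above the other four. Fcer1g, the signalling chain of Fc receptors, rose by 0.73 on the log2 scale with groups that did not overlap, and lost its call without control F1, where its fold was 1.48, and with the dependence on transcript length removed, where its adjusted p was 0.073 (edgeR). Fcgr1, the high-affinity receptor for IgG, was at 2.00 to 5.13 CPM in the control mice and at 3.94 to 8.16 CPM in the mutant mice. Its log2 fold change was 0.94 (adjusted p = 0.0179, edgeR), and the adjusted p was 0.0590 without control M1 and 0.0550 without control F2. Csf1r, the receptor for CSF1, was at 109 to 159 CPM in the control mice and at 160 to 245 CPM in the mutant mice, where the lowest mutant mouse lay just above control M2. Its log2 fold change of 0.60 (adjusted p = 0.00582, edgeR) was just past a fold of 1.5. Without control M1, control F1, mutant F3 or mutant M2 the fold of Csf1r was 1.43 to 1.49, under the threshold. By the annotation, 15.12% of the exon bases of Csf1r lie opposite Hmgxb3 on the other strand, and whether strand was used in counting these libraries is not given in the sources used here.

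Mpeg1, a pore-forming protein of phagocytes, rose by 1.19 on the log2 scale, Aif1, an actin-binding protein used to stain microglia and macrophages, by 1.27, Cd68, a lysosomal glycoprotein, by 1.00, and Emr1, the macrophage antigen F4/80, by 0.86, all with an adjusted p of at most 0.00321 (edgeR). Sfpi1, the gene of the transcription factor PU.1, rose by 1.06 on the log2 scale (adjusted p = 0.00281, edgeR), from 1.73 to 3.11 CPM in the control mice to 4.10 to 7.28 CPM in the mutant mice. None of these 5 genes had overlapping groups. Cybb, the membrane subunit of the phagocyte oxidase, was at 27.7 to 31.4 CPM in the control mice and at 39.5 to 48.5 CPM in the mutant mice. Its groups did not overlap and its adjusted p was 0.000351 (edgeR), but its fold of 1.497 lay just under the threshold. Its fold was 1.51 to 1.54 without control F1, control F2, mutant F2, mutant M1 or mutant M3. Lyz2, lysozyme of myeloid cells, was at 159 to 296 CPM in the control mice and at 233 to 409 CPM in the mutant mice (log2 fold change 0.48, adjusted p = 0.0543, edgeR). Lyz2 was called without control M2, the highest control mouse, with a log2 fold change of 0.66 and an adjusted p of 0.0148 (edgeR), and without mutant F1 its adjusted p was 0.0309 at a fold of 1.46. Of its 50-base windows 15.39% also occur in Lyz1, so that reads there cannot be assigned with certainty. Cd14, a receptor for bacterial lipopolysaccharide, had a log2 fold change of 0.48 with a 95% interval from −0.03 to 0.99 (adjusted p = 0.136, edgeR). Without control F2 it was called, at 0.76 on the log2 scale (adjusted p = 0.0287, edgeR).

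**Figure D2:**
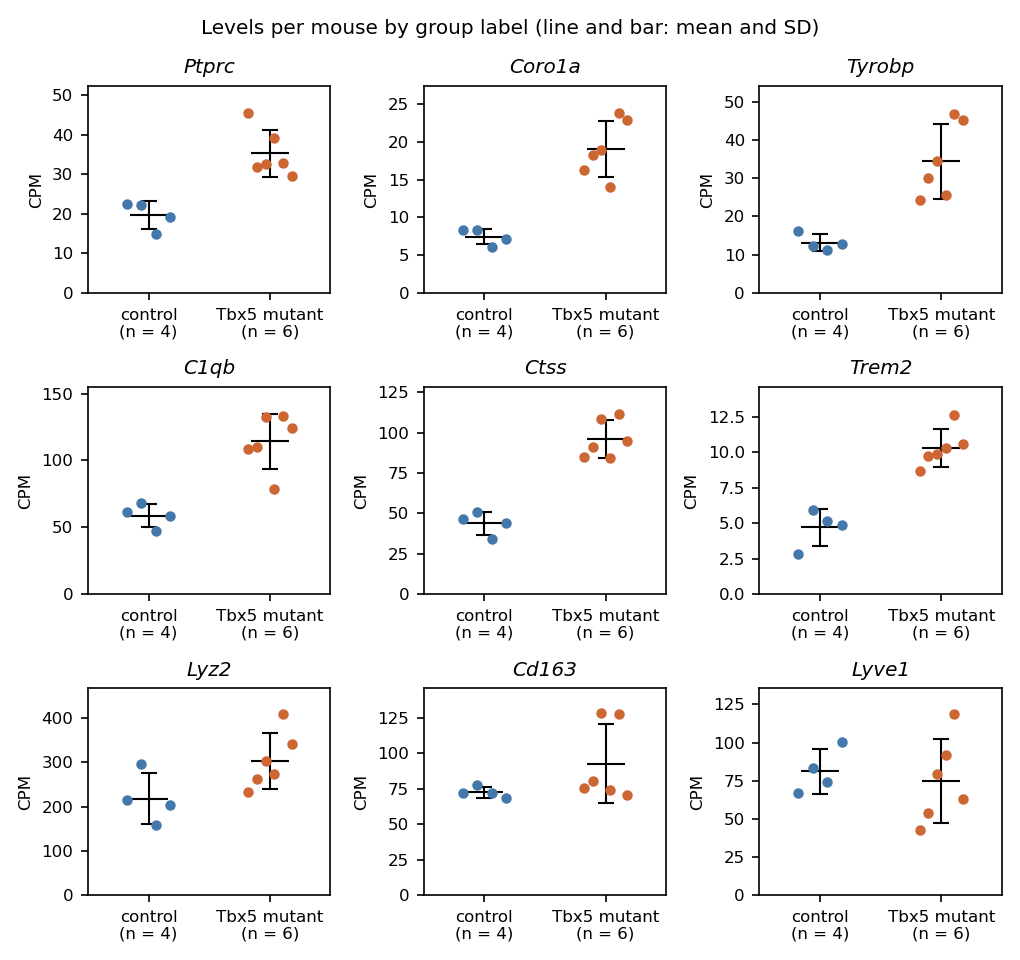
Each panel gives the level of a member in CPM for every mouse, the 4 control mice on the left and the 6 mice labelled Tbx5 mutant on the right, with the group mean as a line and the SD as a bar. The groups do not overlap for Ptprc, Coro1a, Tyrobp, C1qb, Ctss and Trem2, and overlap for Lyz2, Cd163 and Lyve1.

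Of the 5 markers of resident macrophages 1 was called higher, and their log2 fold changes ran from −0.11 to 0.63. Lyve1, a hyaluronan receptor of resident macrophages and of lymphatic vessels, was at 66.6, 83.6, 73.8 and 100.2 CPM in control M1, M2, F1 and F2 and at 42.7, 53.7, 79.3, 92.1, 118 and 63.2 CPM in mutant F1, F2, F3, M1, M2 and M3. The mutant mice fell on both sides of the control mice, and the log2 fold change of Lyve1 was −0.11 with a 95% interval from −0.60 to 0.38 (adjusted p = 0.738, edgeR). The sign of this value changed without control F2 and without mutant F1, to 0.017 and 0.0094. Cd163, a haemoglobin scavenger receptor, was at 68.1 to 77.8 CPM in the control mice, at 70.3 to 80.4 CPM in 4 of the mutant mice and at 128 CPM in mutant F3 and M2. Its log2 fold change was 0.36 with a 95% interval from −0.01 to 0.74 (adjusted p = 0.131, edgeR). Timd4, a receptor for phosphatidylserine on long-lived resident macrophages, had a log2 fold change of 0.32 with an interval from −0.27 to 0.92 (adjusted p = 0.394, edgeR).

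Mrc1, the mannose receptor, rose by 0.45 on the log2 scale (standard error 0.11, adjusted p = 0.00873, edgeR), with groups that did not overlap, at 80.8 to 96.1 and 98.4 to 147 CPM, but at a fold of 1.37. Folr2, a folate receptor of resident macrophages, was called at a log2 fold change of 0.63 (adjusted p = 0.0381, edgeR). Its call was lost without control M1, F1 or F2 or mutant F3, M2 or M3, with adjusted p from 0.0522 to 0.0965 (edgeR) and a log2 fold change of 0.44 without mutant M2. In the annotation 63.07% of the exon bases of Folr2 lie opposite the gene Gm10602, from which its reads may not be separated.

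Set against Ctss in the same library, which removes the library's scaling, Lyve1, Cd163 and Mrc1 had fewer reads in every mutant library. For each read of Ctss the control libraries held 1.43 to 2.26 reads of Lyve1 and the mutant libraries 0.503 to 1.09. The same ratio was 1.53 to 2.12 and 0.741 to 1.18 for Cd163 and 1.83 to 2.79 and 1.08 to 1.51 for Mrc1, without overlap. It was 0.134 to 0.187 and 0.0520 to 0.135 for Timd4 and 0.245 to 0.361 and 0.150 to 0.289 for Folr2, with overlap. Lyz2 over Ctss was also lower in every mutant library, at 4.59 to 5.82 and 2.74 to 3.66. These ratios were chosen after the values had been seen, share Ctss, which was called higher, as denominator, and are given without a test.

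The 2 markers of lipid-associated macrophages went apart. Trem2, a lipid receptor that signals through Tyrobp, was at 2.86, 5.96, 5.17 and 4.87 CPM in control M1, M2, F1 and F2 and at 8.68, 9.73, 9.90, 10.3, 12.7 and 10.6 CPM in mutant F1, F2, F3, M1, M2 and M3. No mutant mouse reached down to the control mice, and the log2 fold change was 1.13 (standard error 0.19, adjusted p = 0.000602, edgeR). Gpnmb, a glycoprotein of lysosomes in lipid-laden macrophages, was at 2.57 to 6.29 CPM in the control mice and at 2.13 to 4.51 CPM in the mutant mice, with a log2 fold change of −0.31 and an interval from −0.89 to 0.27 (adjusted p = 0.406, edgeR). The reads of Gpnmb over those of Trem2 came to 0.528 to 2.20 in the control mice and to 0.219 to 0.382 in the mutant mice.

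**Figure D3:**
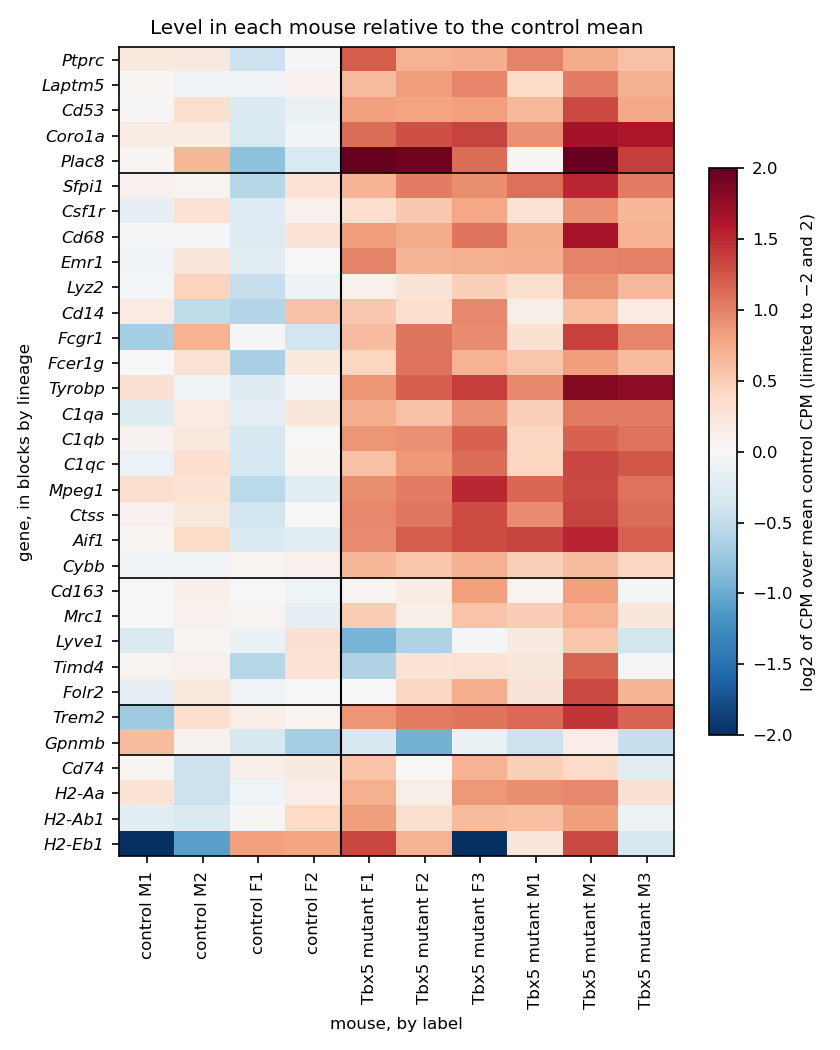
Colour gives the log2 of each member's CPM in a mouse over its mean in the 4 control mice, for the 32 tested members in rows, in blocks by lineage, and the 10 mice in columns, with the control mice to the left of the black line. Mutant M2 is the highest mutant mouse for 22 of the 32 members, and H2-Eb1 is dark blue in control M1 and mutant F3.

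The mutant mice differed among themselves. Mutant M2 had the highest value of the 6 in 22 of the 32 tested members and the lowest in 0, while M1 was lowest in 11 and F1 in 10. Among the control mice F1 was lowest in 19 and M2 highest in 15. The summed level of the 16 macrophage and monocyte members was 579 to 886 CPM in the control mice and 1011 to 1506 CPM in the mutant mice, without overlap. That of the 5 resident markers was 248 to 279 CPM and 258 to 440 CPM, with overlap and with mutant M2 highest. In the fit without mutant M2, 18 of the 21 called members were called again, the exceptions being Csf1r, Folr2 and Plac8. In the fit without mutant M3, 20 of them were called again, the exception being Folr2. Genes of adipocytes (4 on the list) summed to 20.8 CPM in mutant M2 and to at most 4.14 CPM in the other 9 mice, and genes of red cells and platelets (9 on the list, the globins of which are listed at 0) to 121 CPM in mutant M2 and to 17.3 to 82.5 CPM in the others. The part of these tissues in the levels of mutant M2 was not tested.

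The 4 class II members had higher means in the mutant mice, 1 of them called, and overlapped between the groups. H2-Aa, the alpha chain of the class II molecule I-A, was at 109, 66.8, 84.8 and 98.4 CPM in control M1, M2, F1 and F2 and at 147, 97.0, 163, 170, 174 and 111 CPM in mutant F1, F2, F3, M1, M2 and M3. Mutant F2 lay among the control mice and the other five lay above them. H2-Aa was called at a log2 fold change of 0.68 (standard error 0.18, adjusted p = 0.0104, edgeR), and without control M2 its fold was 1.48, under the threshold. H2-Ab1, the beta chain of I-A, had a log2 fold change of 0.56 (adjusted p = 0.0278, edgeR) at a fold of 1.47. Its adjusted p was 0.0507 to 0.0825 (edgeR) without control M1, M2 or F1 or mutant M2, and its fold 1.53 to 1.66 without control F2 or mutant F2 or M3. With the dependence on transcript length removed, the adjusted p of H2-Ab1 was 0.159 (edgeR). Cd74, the invariant chain that guards the class II groove, had a log2 fold change of 0.35 with a 95% interval from −0.01 to 0.72 (adjusted p = 0.128, edgeR). Without mutant M3 its adjusted p was 0.0421 (edgeR) at a fold of 1.36.

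H2-Eb1, the beta chain of the other class II molecule, I-E, split the mice in a way the group labels did not follow. It had 8, 105, 418 and 471 reads in control M1, M2, F1 and F2 and 590, 450, 20, 255, 635 and 109 reads in mutant F1, F2, F3, M1, M2 and M3. Control M1 and mutant F3 were thus nearly without H2-Eb1, although they held 761 and 1170 reads of H2-Aa. Reads of H2-Eb1 over those of H2-Ab1 came to 0.0348 in control M1 and 0.0470 in mutant F3, to 0.553, 0.752 and 0.826 in control M2, mutant M1 and mutant M3, and to 1.24 to 1.69 in the other five mice. The log2 fold change between the groups was 0.54 with an interval from −1.06 to 2.15 (adjusted p = 0.609, edgeR), and ran from 0.15 without control M1 to 0.96 without control F1. The neighbouring pseudogene H2-Ea-ps had 13 and 20 reads in control M1 and mutant F3, 2, 6 and 3 reads in control M2, mutant M1 and mutant M3, and 0 in the other five. The class I gene H2-T23 had 22 and 30 reads in control M1 and mutant F3 and 78 to 278 in the others. H2-D1, also of class I, had its highest levels in those mice, at 330 CPM among the control mice and 552 CPM among the mutant mice. The genes of the histocompatibility complex on chromosome 17 differ in sequence, and partly in expression, between inbred strains. The strain is labelled mix, the haplotype of each mouse is not given, and its part in these levels was not tested.

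**Figure D4:**
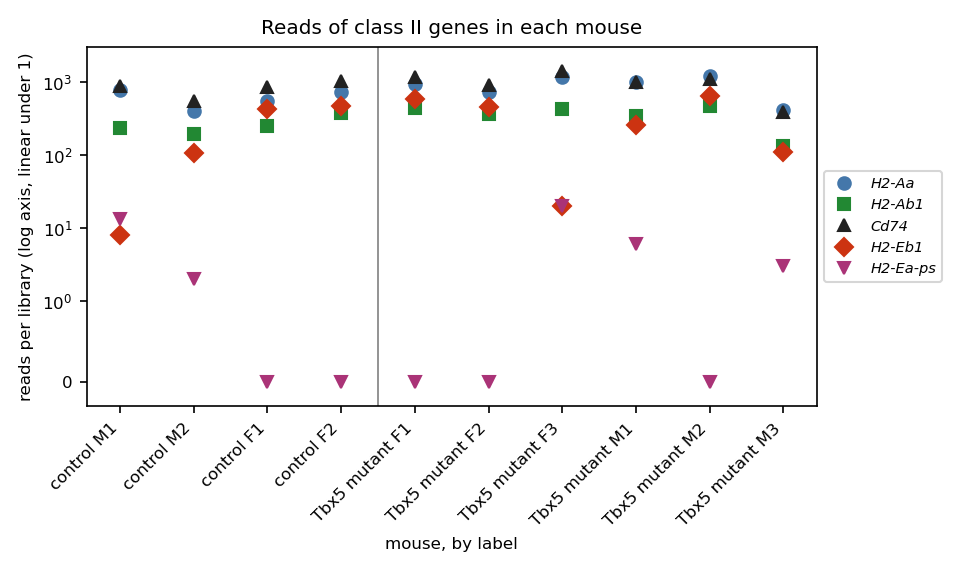
The vertical axis, logarithmic above 1 read, gives the reads of 5 class II genes in each of the 10 mice. H2-Eb1 drops to 8 reads in control M1 and 20 in mutant F3, where H2-Ea-ps has 13 and 20 reads, while H2-Aa, H2-Ab1 and Cd74 keep 230 reads or more in both mice.

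Markers of lymphocytes and granulocytes had few reads in both groups, at most 29 in a library, and none of these 7 members passed the filter. A count of 3 reads, taken as the limit of detection, is at most 0.817 CPM, or 4.23e-05% to 5.26e-05% of a library, and covers counting error only. Cd3e and Cd3g, subunits of the T cell receptor complex, had at most 4 and 6 reads in a library. Nkg7, a granule protein of NK cells and cytotoxic T cells, had at most 7, and Cd79a, a signalling chain of the B cell receptor, at most 6. Cd79b, its partner, had 0 to 16 reads in the control mice and 4 to 13 in the mutant mice. Without the filter the log2 fold changes of these 5 genes lay between −0.07 and 0.78, with adjusted p from 0.409 to 0.984 (edgeR), so that a difference in these genes was not detected at this depth.

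S100a8 and S100a9, the paired calcium-binding proteins of neutrophils, had 2, 4, 1 and 6 and 2, 3, 1 and 7 reads in control M1, M2, F1 and F2. In mutant F1, F2, F3, M1, M2 and M3 they had 12, 21, 6, 1, 19 and 3 and 10, 21, 6, 4, 29 and 1 reads. Both genes were high in the same mutant mice, F1, F2 and M2, and in the other three lay among the control mice. The difference of mean log2 CPM was 1.21 for S100a8 and 1.33 for S100a9 (two-sided exact permutation test, p = 0.114 and p = 0.0952), which does not pass 0.05. Without mutant M1 the permutation p of S100a8 was 0.0159, and without mutant M3 that of S100a9 was 0.0476. With a prior count of 5 the values were 0.0381 and 0.0286. With no filter on low counts S100a9 had a log2 fold change of 1.89 with an adjusted p of 0.0421 and S100a8 one of 1.70 with 0.0543 (edgeR), and S100a9 was also tested and called without control F2, at 2.51 with an adjusted p of 0.0395 (edgeR). Mutant F2 and M2 also had the most reads of the platelet gene Ppbp among the mutant mice, 211 and 290, and control F2, the highest control mouse for both S100 genes, had 210. Mutant F1, also high for both S100 genes, had 56 reads of Ppbp, and mutant F3, which was not, had 57. The part of blood left in the tissue was not tested.

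**Figure D5:**
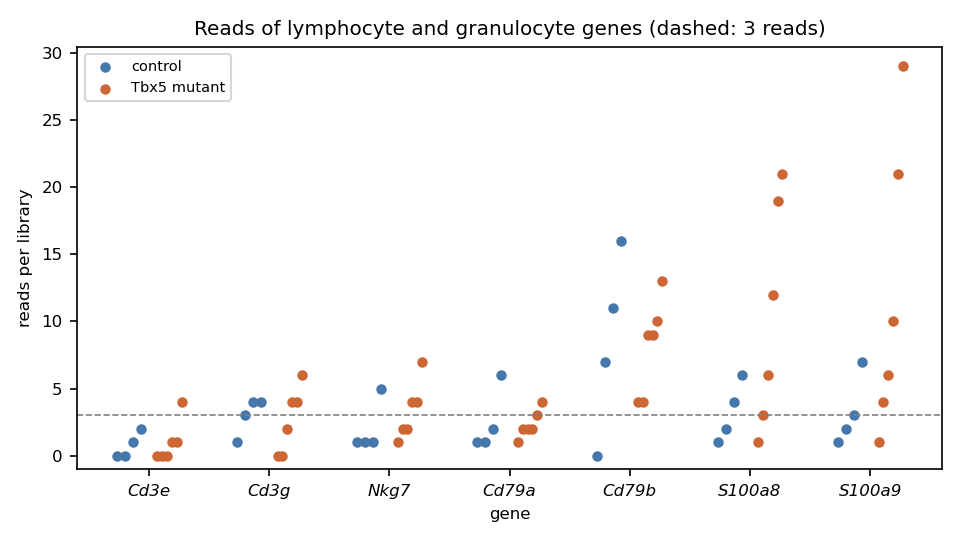
The vertical axis gives the reads per library of the 7 untested members for the 4 control mice and the 6 mice labelled Tbx5 mutant, and the dashed line marks 3 reads. Only S100a8 and S100a9 exceed 16 reads in any library, in mutant F2 and M2.

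Per kilobase of the longest annotated transcript, Lyz2 had the highest level of all members in both groups, at 166 ± 43.3 CPM per kb (SD, n = 4) in the control mice and 231 ± 48.3 CPM per kb (SD, n = 6) in the mutant mice. In the control mice Cd74 at 86.5 ± 14.9 and C1qa at 76.6 ± 12.5 CPM per kb followed, which did not differ beyond their SD. C1qb and C1qc came next at 53.9 ± 8.10 and 52.5 ± 10.7 CPM per kb, again within their SD. In the mutant mice C1qa, at 135 ± 21.4 CPM per kb, followed Lyz2, and Cd74, at 110 ± 25.2, came next, within their SD. Tyrobp moved from rank 12 of the 39 to rank 7 and Lyve1 from rank 8 to rank 12.

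Further genes were taken from lists that do not include the members, 134 genes in all. Not all of them mark a leukocyte lineage, the class I genes and the ligands of Csf1r among them. Of the 134, 64 were tested, 36 called higher and 2 lower, beside 8.50% and 7.16% of all genes tested. The lists were chosen with earlier results of these data known, so that these counts are not independent of the data. Of 25 further macrophage and monocyte genes, 23 were tested, 15 were called higher and 0 lower, beside the same 8.50% and 7.16% of all genes. Those with the largest log2 fold changes were Cx3cr1, the fractalkine receptor, at 1.67, Fcgr4, an IgG receptor, at 1.60, Ly86, the partner MD-1 of an innate receptor, at 1.36, and Clec7a, the beta-glucan receptor, at 1.25, with adjusted p from 2.08e-05 to 0.003 (edgeR). Mertk, a receptor of resident macrophages for dying cells, had a log2 fold change of 0.12 (adjusted p = 0.515, edgeR). Of the ligands of Csf1r, Csf1 rose by 0.42 on the log2 scale (adjusted p = 0.0117, edgeR), under a fold of 1.5, and Il34 was not tested for lack of reads. Of 8 further receptors that pair with Tyrobp or Fcer1g, 1 was tested, Clec5a, and it was called at 1.05, a call that was lost without control F1 or F2, with adjusted p of 0.0645 and 0.0628 (edgeR).

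Among other oxidase subunits, Ncf1, Ncf4 and Rac2 were called higher, at log2 fold changes of 1.02, 0.69 and 0.77, and Cyba was not, at 0.28 (adjusted p = 0.0589, edgeR). The call of Ncf1 held without each mouse in turn. Rac2 lost its call without control M1, F1 or F2 or mutant M2 (adjusted p from 0.0502 to 0.0913, edgeR), and Ncf4 without 7 of the 10 mice (0.0597 to 0.142). Of 8 further genes of lipid-associated macrophages, 6 were tested, and Itgax, an integrin of macrophages and dendritic cells, Fabp5, a fatty acid carrier, and Lpl, lipoprotein lipase, were called higher at 1.60, 1.10 and 0.70. Lgals3, galectin-3, was called lower at −1.10 (adjusted p = 0.0132, edgeR). Fabp5 lost its call without control F1 or F2, with adjusted p of 0.0555 and 0.0511 (edgeR). Lpl was at 1242 to 1930 CPM in the control mice and 2336 to 2615 CPM in the mutant mice, far above Lyz2 at 159 to 296 and 233 to 409 CPM. Which cells carried the reads of Lpl and Fabp5 was not tested.

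In antigen presentation, 4 of 11 further class II genes were tested and 3 called higher, H2-DMa and H2-DMb1, which load peptides, at 0.83 and 1.05, and Cd86, a costimulatory ligand, at 0.88. Ciita, the master activator of class II genes, had a log2 fold change of 0.10 (adjusted p = 0.667, edgeR). Cd86 lost its call without control M2, F1 or F2, with adjusted p of 0.0588 to 0.0701 (edgeR). Of 10 class I genes, 9 were tested and 6 called higher, with H2-Q6 at 2.37, H2-Q4 at 1.38, B2m, the common light chain, at 1.18 and H2-K1 at 1.03. Members of these class I families resemble one another, and reads may have been split among them. H2-Q6 had 21 reads in all control libraries together and passed the filter only through the mutant mice. Its groups overlapped, at 0.57 to 1.22 and 0.857 to 9.62 CPM. Reads of H2-K1 over those of H2-D1 were 0.331 in control M1 and 0.347 in mutant F3, and 0.595 to 1.11 in the other mice. The part of the haplotype in these levels was not tested. Of 9 dendritic cell genes 4 were tested and Bst2, which interferon also induces, was called higher at 1.03. Zbtb46, a transcription factor of conventional dendritic cells that endothelium also expresses, was lower in every mutant mouse at −0.49 (adjusted p = 0.00554, edgeR), under the fold threshold. Clec9a was at −0.12 and Irf8 at 0.52 (adjusted p = 0.763 and 0.0476, edgeR).

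Of 14 further T cell genes, 1 was tested, Thy1, which stromal cells also express, and it was called at 0.89, without a call once control F1 or F2 was left out (adjusted p = 0.0567 and 0.0606, edgeR). The 10 NK cell genes were all under the filter, with 15 to 48 reads in a library in sum. Their summed level was 2.03 to 3.92 CPM in the control mice and 4.26 to 7.57 CPM in the mutant mice, without overlap, and was not tested. Of 10 genes of B cells and plasma cells found, 4 were tested and Blk, a kinase, was called higher at 0.79. The others, Cr2, Ebf1 and Cd37, had log2 fold changes of −0.90, −0.27 and 0.15 (adjusted p = 0.14, 0.143 and 0.753, edgeR). Of 14 granulocyte genes found, 4 were tested, with S100a4, which macrophages and fibroblasts also express, called higher at 1.51 and Mmp9, a gelatinase, called lower at −1.62. Mmp9 lost its call without control M2 or F2, with adjusted p of 0.0712 and 0.0520 (edgeR). Of 8 mast cell genes 2 were tested and 0 called by edgeR, DESeq2 or limma, while both had an unadjusted p under 0.05 in edgeR and were higher.

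Markers of other cells of the atrium were compared in the same fit. The 6 cell division genes, Mki67, Top2a, Cdk1, Ccnb1, Birc5 and Bub1, were all called higher, at log2 fold changes of 2.32 to 3.82, and summed to 11.8 to 26.6 CPM in the control mice and 74.2 to 249 CPM in the mutant mice. Which cells carried these reads was not tested. Ccnb1, Birc5 and Bub1 had 0 to 2, 3 to 9 and 1 to 6 reads in a control library. They passed the filter on low counts only through the mutant mice, so that all 6 being called was partly set by the filter. Ccnb1 lost its call without control M2 or F1, at log2 fold changes of 4.38 and 4.35, because its control mean then fell under the minimum. The 6 endothelial genes summed to 1495 to 2129 and 1485 to 1960 CPM, with 0 called by edgeR, DESeq2 or limma and 1 lower at an unadjusted p under 0.05 in edgeR. The 8 lymphatic genes, of interest because Lyve1 marks those vessels too, summed to 361 to 405 and 339 to 491 CPM. Most of that sum was Stab1, which macrophages also express, at 268 to 319 and 276 to 424 CPM, so that the sum is not a level of lymphatic vessels. Prox1, a factor of lymphatic identity, was called lower at −1.16 (adjusted p = 2.36e-05, edgeR). It was the only gene called of the 5 tested on this list, where 2 were higher and 1 lower at an unadjusted p under 0.05 in edgeR. Which cells carried the reads of Prox1 was not tested, and its level is not taken as one of lymphatic vessels.

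Fibroblast genes, 7 in number, summed to 7680 to 9341 and 5600 to 8219 CPM, with Col1a1 and Col1a2 called higher at 1.31 and 1.19 and Gsn lower at −0.76. Gsn alone was at 5030 to 6613 CPM in the control mice and at 2356 to 4253 CPM in the mutant mice. The sum is thus not a level of fibroblasts. Of the 8 right atrial cardiomyocyte genes, Actc1 and Tnnt2 were called higher, at 0.90 and 1.12, and Myl7, Nppa, Sln and Bmp10 lower, at −2.73, −0.65, −0.98 and −0.64. Nppa lost its call without any of 8 of the mice (adjusted p of 0.0544 to 0.0942, edgeR) and Bmp10 without control M1 or mutant M1 or M2, at 0.669 to 0.684 of the control level. The 4 genes of ventricle and left atrium summed to 135 to 250.5 CPM in the control mice and to 104 to 928 CPM in the mutant mice, with Myl2 called higher at 2.10. The 8 thymocyte genes, listed to look for thymus in a sample, summed to 36.3 to 43.3 and 23.1 to 33.9 CPM, with Satb1 called lower at −0.71. Satb1 alone was at 24.3 to 30.7 and 13.7 to 18.5 CPM, so that the sum is not a level of thymocytes. The thymocyte-specific Rag1 was at 0 or 1 read in 9 of the libraries and at 8 in mutant F1. In the list of red cell and platelet genes Alas2, of haem synthesis, was called higher at 1.05, and lost its call without control M1, M2 or F1 or mutant F2 or M2 (adjusted p of 0.0505 to 0.0764, edgeR). The part of these cell types in the levels of the leukocyte genes was not tested.

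The labels give both sexes in each group, and the difference between the groups was compared between the labelled sexes by an interaction term, although Xist and Y-linked reads go against these labels in the control mice. With the sex labels as given, 0 of the 32 members had an interaction past an adjusted p of 0.05 (edgeR's quasi-likelihood test), beside 0.290% of all genes tested. An unadjusted p under 0.05 was found for 3 members, H2-Eb1, Lyve1 and Mpeg1, beside 1364 of the 13084 genes tested, a similar share. With the sex labels of the control mice exchanged, the number past the adjusted p was again 0. Those with an unadjusted p under 0.05 were Gpnmb, Lyz2 and Mpeg1, beside 1189 of all genes tested. By limma with a trend the numbers were 0 and 2, the latter beside 1308 of all genes tested. With the mice labelled male only, 3 against 2, 10 of the 21 called members were called again, and 30 of the 32 members tested there had a log2 fold change above 0. With the mice labelled female only, 18 were called again, the exceptions being Folr2, H2-Aa and Sfpi1. By their Xist and Y-linked reads, both of these fits set mutant mice of one sex against control mice of the other, so that group and sex cannot be told apart in them.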

How the data were processed

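Right atrial RNA of 10 mice, 4 labelled control and 6 labelled Tbx5 mutant, was sequenced, with 1 library per mouse. According to the submitters' processing notes FastQC, TopHat2 2.0.11, featureCounts and DESeq2 were used with build mm10; the gene annotation and the use of strand in counting are not given in the sources used here. The labels describe both an mRNA kit and removal of ribosomal RNA, a kit that removes globin RNA, and 2 ages, 6 to 8 weeks in a protocol and 8 to 10 weeks as a characteristic. The authors deposited whole-number counts of reads per gene without normalization, and a signal per gene in which each count was divided by 1 DESeq2 size factor per library. The deposited table also holds the mean of that signal and the authors' own comparison of the groups (log2 fold change with its standard error, Wald score, p-value, adjusted p-value and fold change as a ratio), which were not used.

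In R 4.3.3, edgeR 4.0.16 was used for the counts: filterByExpr set the genes to test, TMM the library sizes, and a quasi-likelihood test of all 10 libraries, with no covariate, compared the groups, with Benjamini-Hochberg adjustment over the 13084 genes tested, members included. The prior count of log2 fold changes was 0.125, and a standard error was obtained by dividing the log2 fold change by the square root of F. Levels are CPM on the TMM library size. Permutation tests took all 210 ways to set 4 of 10 mice apart. Nothing in the labels says more of the replicates than 1 mouse each; the lowest chi-square per degree of freedom between libraries of a group was 3.78 over 21 pairs, so none was a repeat of another. The totals per library limit the precision of genes with few reads, and reads carry no molecular identifiers, so limits cover counting error only. Columns of per-library values that belong to no sample numbered 0.

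The members and all gene lists were chosen with earlier results of these data known. All 39 members are described. From each further list of leukocyte and related genes the text gives the counts tested and called. It names at most 4 called genes, those with the largest log2 fold changes. From each list of other cells it gives the range of summed CPM and the genes called. Mertk, Cyba, Ciita, Zbtb46, Clec9a, Irf8, Cr2, Ebf1, Cd37, Stab1, Csf1, H2-T23, H2-D1, H2-Ea-ps, Ppbp and Rag1 were named after their values had been seen. Ighm and Ly6g were not analysed here, and some genes of the lists are not reported here. Alternatives were RLE and upper-quartile scaling, other filters, a prior count of 5, DESeq2 1.42.0, limma 3.58.1 with a trend (prior count 1), sex as a covariate, a replicate block, only one labelled sex, leaving out single libraries, counts without Rn45s, offsets that remove a library's dependence on transcript length (lowess, span 0.4), and other thresholds. The fit was tested on simulated data before use. Transcript lengths, overlaps and shared 50-base windows came from GENCODE M21, and promoters from RefSeq on GRCm38.p6. Figures were drawn with matplotlib 3.10.9.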

Additional observations from a re-analysis of the deposited data

Results flagged for a closer look

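In 94 groups of values, the 39 members and 8 lineage sums in each group of mice, a single mouse stood far from the rest of its group 5 times by Dixon's criterion, and chance flags about 1 group in 20, or 4.7 here. Mutant M2 was the mouse in 4 of the 5. It had Cd53 at 36.7 CPM (252 reads), with the other mutant mice at 23.1 to 26.2, and Cd68 at 14.7 CPM (101 reads), with the next at 9.90. Timd4 was at 15.0 CPM (103 reads) in mutant M2, with the next at 8.22, and the summed level of the lipid-associated macrophage members was at 17.2 CPM, with the next at 13.7. In control M2, Nkg7 was at 0.827 CPM, which is 5 reads, with the other control mice at 1 read each.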

How the results depend on the processing

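The number of members called higher was 21. It was 11 with the mice labelled male only and 9 at a fold over 2, and 16 to 24 under the other alternatives. The number past the adjusted p was 24, and 11 with the mice labelled male only. The male-only fit holds 5 mice, and by Xist and Y-linked reads its control mice are of the other sex, so that group and sex cannot be told apart in it. Across the fits that each left out 1 replicate, the members called went from 18 to 23, those past the adjusted p from 21 to 24, all genes called from 1807 to 2205, and genes with a group difference that depended on the labelled sex from 26 to 64. Members called lower numbered 0 in every alternative. All genes called were 2049, and were 1284 with a mean count of at least 50, which tests fewer genes, 906 at a fold over 2 and 4096 with no fold threshold. Genes of the latter kind were 38, and 1 with the control sex labels exchanged, as the Xist and Y-linked reads would have them. No fit of the interaction left out a control mouse, since 1 mouse of a labelled sex would be left.

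Mice with the same number in both groups share only the number: deviations from the group mean had a mean correlation of −0.00712 in the 4 such pairs and 0.00129 in the other 20, which gives no pairing. With the replicate block 20 members were called, 25 were past the adjusted p, and 1957 genes were called in all.

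Of 779 comparisons of the 32 tested members, S100a8 and S100a9 with an alternative, 727 kept direction and side of the threshold, 32 lost a p under 0.05 (adjusted, or by permutation for S100a8 and S100a9), 15 gained one and 5 turned; this does not count calls, which also need the fold. Lyve1 turned to 0.292 with the mice labelled male only, and its values without 1 replicate ran from −0.284 to 0.0166. With the mice labelled female only, Gpnmb turned to 0.0674 and H2-Eb1 to −0.326. With the dependence on transcript length removed, 18 of the 21 called members were called again, the exceptions being C1qa, Fcer1g and Folr2. Depth limits the 7 members under the filter.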
